A study of Mus musculus with 15 samples.

Results

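The acetyltransferase and deubiquitinase modules of the SAGA complex were described through the RNA levels of 10 subunit genes: Kat2a, Kat2b, Tada2b and Tada3 for the acetyltransferase module, and Usp22, Atxn7, Atxn7l1, Atxn7l2, Atxn7l3 and Eny2 for the deubiquitinase module. They were taken by gene symbol from a table of 37310 genes, each symbol occurring in 1 row, and all 10 passed the filter on low counts in both experiments. The 15 libraries came from J1 cells, a mouse embryonic stem cell line cultured with fetal calf serum and the self-renewal cytokine LIF, and fell into 5 groups of 3. A first experiment held Taf5l knockout (Taf5l-KO), Taf6l knockout (Taf6l-KO) and wild-type J1 cells (WT-Taf), and a second held c-Myc knockout (cMyc-KO) and its own wild-type J1 cells (WT-Myc). Both Taf knockouts were compared with the same 3 WT-Taf libraries, so their comparisons share controls. The labels do not say whether libraries of a group came from separate cultures or how many clones a knockout comprised, so the spread behind each p-value may be no more than technical.

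SAGA is a transcriptional coactivator that acetylates histone H3 and removes ubiquitin from histone H2B at transcribed genes. Its acetyltransferase module holds KAT2A (GCN5) or its paralog KAT2B (PCAF) with the adaptors TADA2B, TADA3 and SGF29, and its deubiquitinase module holds the protease USP22 with ATXN7L3, ENY2 and an ataxin-7 family protein (ATXN7, ATXN7L1 or ATXN7L2) that anchors the module to the complex. TAF5L and TAF6L belong to the core of SAGA, not to either module, and MYC is a transcription factor that recruits acetyltransferase complexes through TRRAP.

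Total estimated counts per library ran from 14935631 to 21767884 in the first experiment and from 17922864 to 27650813 in the second. The member with the fewest counts, Atxn7, had 114 to 256 per library, and the 4 members with the most (Kat2a, Kat2b, Usp22 and Atxn7l3) had at least 1181. Levels are given as CPM, estimated counts scaled to library size within each experiment. Each targeted gene was lower in its own knockout and kept measurable RNA: Taf5l was 42.5 CPM in Taf5l-KO against 86.0 in WT-Taf, Taf6l 6.59 in Taf6l-KO against 26.1, and Myc 29.2 in cMyc-KO against 66.8 in WT-Myc. Myc was also lower in Taf5l-KO (42.7 CPM) and Taf6l-KO (39.0) than in WT-Taf (69.2). The 8 embryonic stem cell markers summed to 4244 to 4339 CPM in Taf5l-KO and 4214 to 4301 in Taf6l-KO, against 4783 to 4867 in WT-Taf, and to 6698 to 6932 in cMyc-KO against 6006 to 6193 in WT-Myc. Of the 8, 4 were called lower and 1 higher in Taf5l-KO, 6 lower and none higher in Taf6l-KO, and 4 higher and none lower in cMyc-KO. Called means an edgeR adjusted p under 0.05, as for 33.2%, 37.2% and 34.8% of all genes in these 3 comparisons. The 9 markers of differentiated cells summed to 9.60 to 10.96 CPM in Taf5l-KO and 9.87 to 10.6 in Taf6l-KO against 6.71 to 7.18 in WT-Taf, and to 9.23 to 9.54 in cMyc-KO against 9.77 to 10.8 in WT-Myc. Only 5 of these passed the filter on low counts, and they did not move together. In each Taf knockout 2 were called higher (Gata4 and Pax6) and 1 lower (Gata6), and in cMyc-KO 1 higher and 2 lower, beside the same shares of all genes. The 6 fibroblast markers summed to at most 13.2 CPM, with Postn at 0 in 4 of the 5 groups. The part of these shifts in the changes of the module genes was not tested.

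The members differed widely in level. On a scale of CPM per kilobase of the longest annotated protein-coding transcript, Kat2a was highest in WT-Taf at 48.3 ± 0.665 (SD, n = 3), followed by Usp22 at 38.8 ± 0.992 and Atxn7l3, the adaptor that activates USP22, at 36.1 ± 0.880. Kat2b (22.1 ± 0.722) and Tada3 (20.5 ± 0.974) formed a middle pair, with Eny2, a small protein shared with the TREX-2 mRNA export complex, at 8.31 ± 0.426. Tada2b (4.17 ± 0.341), Atxn7l2 (3.55 ± 0.190), Atxn7l1 (3.52 ± 0.191) and Atxn7 (1.13 ± 0.0462) were lowest. Kat2b and Tada3, and Atxn7l2 and Atxn7l1, were neighbours in this order whose libraries overlapped in WT-Taf. The lowest Tada2b library (3.78) lay just above the highest Atxn7l2 library (3.76), and Atxn7 was last in all 5 groups. The order depends on the transcript used. With the shortest annotated coding transcript, the levels in WT-Taf were 234 for Kat2b, 132 for Tada3 and 44.7 for Eny2. Kat2b and Tada3 then lay above Kat2a (48.4), and Atxn7 (9.95) lay above Atxn7l1 (7.69) and Atxn7l2 (7.33). Usp22 changed place between groups: it was first in Taf6l-KO (48.4 ± 0.735, beside Kat2a at 47.9 ± 1.75, values that overlap) and ranked 3 in cMyc-KO (30.1 ± 0.571).

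**Figure D1:**
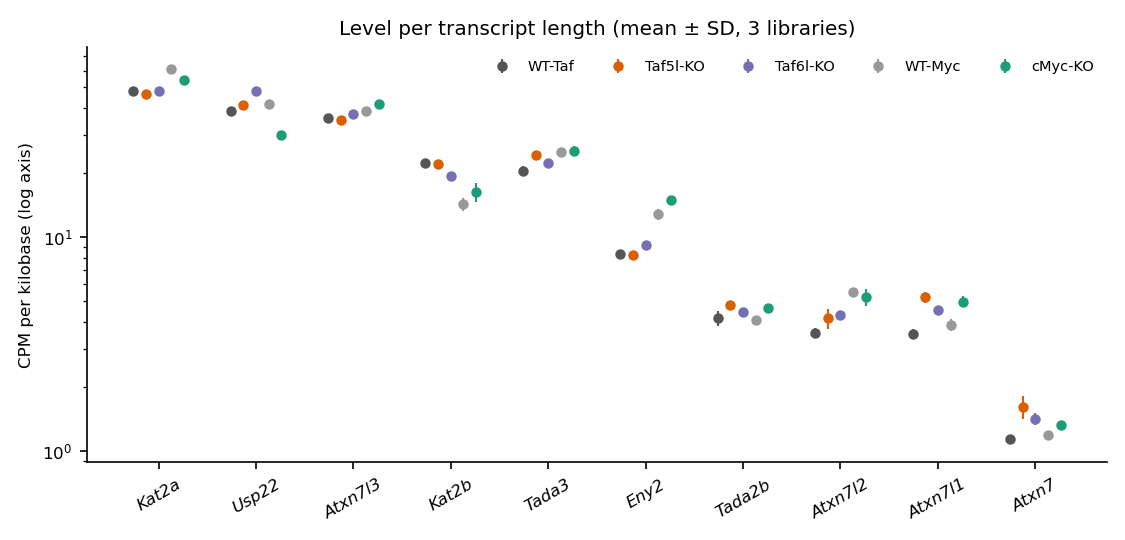
Level of each module gene in CPM per kilobase of the longest annotated coding transcript (log axis), as mean ± SD of 3 libraries for each of the 5 groups. Kat2a, Usp22 and Atxn7l3 stand between 30.1 and 60.8 in every group, and Atxn7 lies lowest, between 1.13 and 1.60.

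Promoters were not assayed in the data used here. Those of 2 pairs of paralogs among the members, KAT2A with KAT2B and ATXN7 with ATXN7L1, are shown for comparison. RefSeq promoter windows (GRCm38.p6) were at hand for 8 of the 10 genes, 13 windows in all, and the 250 bases before each start were searched on both strands for an E-box (CACGTG), a GC box (GGGCGG), an ETS motif (CCGGAAG) and a CCAAT box (CCAAT), none of which contains another. Matches are in capitals, and each sequence runs 5′ to 3′ on the gene's strand, ending at the base before the start: Kat2a at chr11:100712468-100712717 (minus strand), Kat2b at chr17:53566721-53566970 (plus strand), Atxn7 at chr14:14012241-14012490 (plus strand) and Atxn7l1 at chr12:33147436-33147685 (plus strand).
Kat2a: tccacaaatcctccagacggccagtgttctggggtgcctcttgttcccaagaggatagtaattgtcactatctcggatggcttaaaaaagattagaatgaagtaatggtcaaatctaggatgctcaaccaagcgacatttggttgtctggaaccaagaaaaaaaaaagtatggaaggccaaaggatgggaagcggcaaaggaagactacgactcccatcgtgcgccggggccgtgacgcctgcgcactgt
Kat2b: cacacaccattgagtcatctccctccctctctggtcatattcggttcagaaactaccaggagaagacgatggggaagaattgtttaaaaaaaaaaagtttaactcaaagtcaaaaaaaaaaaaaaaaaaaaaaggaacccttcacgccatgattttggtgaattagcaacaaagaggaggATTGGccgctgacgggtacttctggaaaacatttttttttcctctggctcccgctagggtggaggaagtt
Atxn7: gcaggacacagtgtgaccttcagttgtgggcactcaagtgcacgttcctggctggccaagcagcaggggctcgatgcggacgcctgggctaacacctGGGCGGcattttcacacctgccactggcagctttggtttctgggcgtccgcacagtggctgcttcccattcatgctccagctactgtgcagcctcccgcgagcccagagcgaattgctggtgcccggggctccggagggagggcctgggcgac
Atxn7l1: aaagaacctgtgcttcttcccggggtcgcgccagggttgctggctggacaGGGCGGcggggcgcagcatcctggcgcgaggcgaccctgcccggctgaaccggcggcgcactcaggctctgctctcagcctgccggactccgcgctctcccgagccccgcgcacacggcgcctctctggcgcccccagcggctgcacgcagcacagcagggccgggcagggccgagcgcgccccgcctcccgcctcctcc
The Kat2a window held no match, and the Kat2b window held a CCAAT box read on the opposite strand (ATTGG). The Atxn7 and Atxn7l1 windows each held a GC box. The Kat2b window shown is 1 of 2 and the Atxn7l1 window 1 of 5 for the gene, chosen because they hold a match. Over the 13 windows, 4 held a GC box (32.7% of all 32851 promoters did), 2 a CCAAT box (33.8%), 1 an ETS motif (6.91%) and none an E-box (6.02%). The Atxn7l1 window shown was 76.0% G and C, that of Atxn7 64.4%, that of Kat2a 48.8% and that of Kat2b 40.8%. The median over all promoters was 52.4%. The Atxn7l1 windows not shown had 47.6% to 55.2% and the other Kat2b window 48.4%, so these values depend on the window chosen.

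In Taf5l-KO, 5 of the 10 genes rose and none fell: Atxn7l1, Atxn7, Tada3, Tada2b and Usp22. Across all 15743 genes tested, 33.2% were called, 17.4% higher and 15.9% lower, with edgeR's quasi-likelihood test and a Benjamini-Hochberg adjusted p under 0.05. No member fell at an unadjusted p under 0.05 or with DESeq2 either (0 of 10), but 1 was called lower on both FPKM scales (Atxn7l3) and 2 with the authors' factors as offsets (Kat2b and Atxn7l3). The median log2 fold change of the 10 was 0.15, against 0.00054 over all genes. The groups of libraries did not overlap for 5 of 10 members and for 44.7% of all genes. The 2 largest changes were in ataxin-7 family genes, and the catalytic genes of both modules moved little: Kat2a and Kat2b did not pass the test, and Usp22 rose 1.07-fold.

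In Taf6l-KO, 6 of 10 rose and 1 fell, where 37.2% of all genes were called, 19.1% higher and 18.2% lower. Usp22, Atxn7, Atxn7l1, Atxn7l2 and Eny2 of the deubiquitinase module rose, and Tada3 of the acetyltransferase module rose while Kat2b fell. By module, 5 of 6 deubiquitinase genes were called higher (median log2 fold change 0.30) and 1 of 4 acetyltransferase genes (median 0.041), with a median of 0.020 over all genes. Of the 6 members called higher, only Usp22 kept its call under every alternative run. The number called higher was 2 with DESeq2 and 1 on both FPKM scales or with the authors' factors. The share of all genes called under the alternatives was not counted, here or for Taf5l-KO. The libraries of the 2 groups did not overlap for 7 of the 10 members, as for 49% of all genes. In cMyc-KO, 2 rose (Atxn7l1 and Eny2) and 2 fell (Usp22 and Kat2a), where 34.8% of 14563 genes were called, 15.2% higher and 19.5% lower. The share called among members, 4 of 10, was near that of all genes in cMyc-KO. The groups did not overlap for 6 of 10 members, as for 49.6% of all genes.

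**Figure D2:**
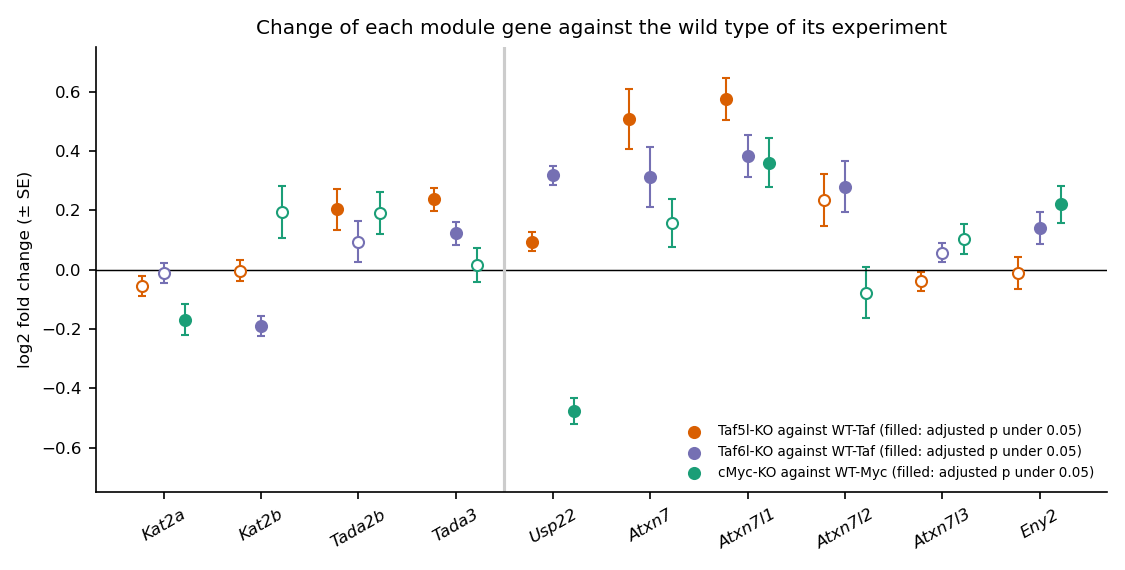
Log2 fold change ± SE of each module gene in Taf5l-KO and Taf6l-KO against WT-Taf and in cMyc-KO against WT-Myc, with acetyltransferase genes left and deubiquitinase genes right of the grey line and filled points for an adjusted p under 0.05. Atxn7l1 lies above zero in all 3 knockouts (0.58, 0.38 and 0.36), while Usp22 lies above zero in both Taf knockouts (0.094 and 0.32) and at -0.48 in cMyc-KO.

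Kat2a encodes the acetyltransferase of SAGA and of the related ATAC complex. It stood at 145, 138 and 142 CPM in Taf5l-KO, 144, 152 and 142 in Taf6l-KO and 147, 145 and 149 in WT-Taf. The Taf6l-KO values overlapped those of WT-Taf, and so did the highest Taf5l-KO value. The log2 fold changes were -0.056 ± 0.035 (SE) in Taf5l-KO, with a 95% interval of -0.12 to 0.012, and -0.012 ± 0.035 in Taf6l-KO, with an interval of -0.080 to 0.056, and neither passed the test. In the second experiment Kat2a was 171, 166 and 158 CPM in cMyc-KO and 177, 190 and 189 in WT-Myc, so that every knockout library lay below every wild-type library. It fell by 0.17 ± 0.052 on the log2 scale (edgeR adjusted p = 0.0377), 1.12-fold lower. That call held under 2 of 15 alternatives and was lost without cMyc-KO replicate 1 (adjusted p = 0.0592), 2 (0.139) or 3 (0.0748) and without WT-Myc replicate 2 (0.135) or 3 (0.115).

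Kat2b, the paralogous acetyltransferase, showed a different pattern. It stood at 99.0, 104 and 105 CPM in WT-Taf, 99.8, 103 and 105 in Taf5l-KO, and 90.5, 90.6 and 89.5 in Taf6l-KO. All 3 Taf6l-KO libraries were below the others of that experiment. Kat2b fell by 0.19 ± 0.035 on the log2 scale in Taf6l-KO (edgeR adjusted p = 0.000661), which held under all 16 alternatives, and differed by -0.0034 ± 0.035 in Taf5l-KO (adjusted p = 0.955). The direct test of Taf6l-KO against Taf5l-KO gave -0.19 (adjusted p = 0.00196). That difference was not past the threshold with library totals (-0.095, adjusted p = 0.102), all 15 libraries in a single fit (-0.18, 0.0630) or either FPKM scale (0.624 and 0.626). In cMyc-KO, Kat2b was 69.7, 72.4 and 84.7 CPM against 67.5, 70.1 and 60.9 in WT-Myc. The groups overlapped and the log2 fold change of 0.19 ± 0.089 did not pass the test (adjusted p = 0.132). It was called higher with all 15 libraries (0.23, adjusted p = 0.00679) and on both FPKM scales (0.30, 0.0107 and 0.0117). The effect on Kat2b differed between Taf6l-KO and cMyc-KO by -0.42 ± 0.085 (interaction term, adjusted p = 0.00105) and between Taf5l-KO and cMyc-KO by -0.24 ± 0.085 (adjusted p = 0.0406). The latter was lost with RLE scaling (0.0659) or DESeq2 (0.0636) and without any 1 of the Taf5l-KO libraries, WT-Taf replicate 2 or 3, cMyc-KO replicate 3 or WT-Myc replicate 1 or 3 (0.0511 to 0.113).

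Kat2b was the member most sensitive to the authors' own scaling. The ratio of the estimated count to the deposited normalized value, relative to that of other genes, averaged 0.820 in WT-Taf, 0.998 in Taf5l-KO and 0.935 in Taf6l-KO for Kat2b. With these factors as offsets in edgeR, an alternative added after seeing the data, a fall of Kat2b was called in Taf5l-KO too (-0.28 on the log2 scale, adjusted p = 0.0407), Kat2b fell further in Taf6l-KO (-0.39, 0.0087) and rose in cMyc-KO (0.30, 0.00919). The direct test between Taf6l-KO and Taf5l-KO was then not past the threshold (-0.11, adjusted p = 0.508). No source used here says what these factors correct for.

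**Figure D3:**
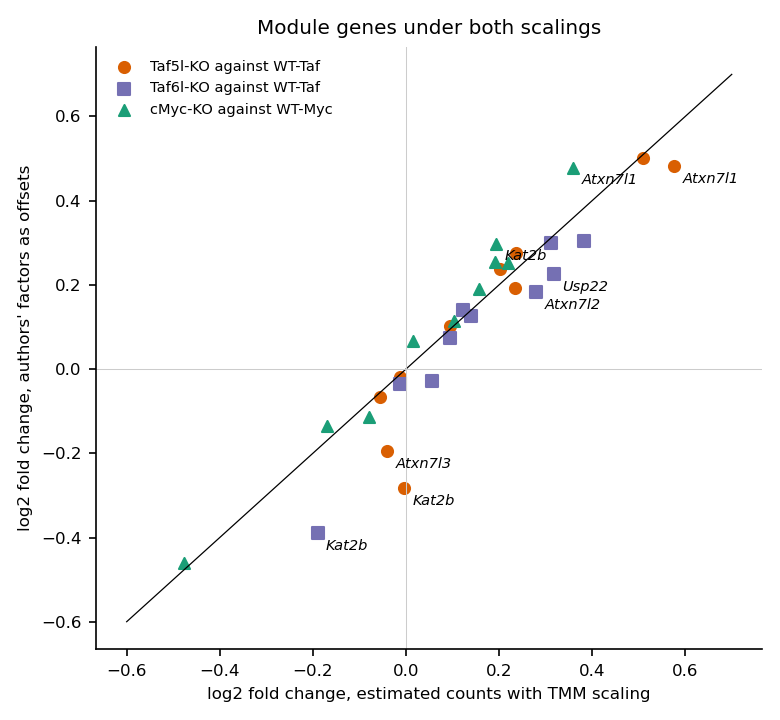
Log2 fold change of each module gene from estimated counts with TMM scaling (horizontal) and with the authors' gene and library factors as offsets (vertical), for 3 comparisons; the line marks equal values. Most points lie near the line, and Kat2b lies farthest below it, at -0.28 and -0.39 in Taf5l-KO and Taf6l-KO on the vertical axis.

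On CPM per kilobase of the longest coding transcript, Kat2a made up most of the summed Kat2a and Kat2b RNA in every group. Its share was 68.6% ± 0.752 (SD, n = 3) in WT-Taf, 67.8% ± 0.988 in Taf5l-KO and 71.2% ± 0.638 in Taf6l-KO. In the second experiment it was 81.1% ± 1.34 in WT-Myc and 76.9% ± 2.57 in cMyc-KO. The groups did not overlap for Taf6l-KO (2.59 percentage points higher) and cMyc-KO (-4.16 points, or -2.72 without cMyc-KO replicate 3). On deposited FPKM, Kat2b lay above Kat2a in every group except WT-Myc (571 against 247 in WT-Taf replicate 1). Which paralog leads therefore depends on the lengths used. The differences in the Kat2a share on FPKM were 5.44 and -7.46 points, and that of Taf5l-KO turned from -0.78 to 3.37. For the shares on CPM per kilobase, the two-sided exact permutation test gave p = 0.1 for Taf6l-KO and cMyc-KO and p = 0.3 for Taf5l-KO. The value of 0.1 is the smallest it allows with 3 libraries against 3. Adjusted over 12 share comparisons, the 3 values were 0.2, 0.2 and 0.45. The shares on FPKM were not tested.

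Tada2b and Tada3 encode the adaptors of the module, TADA2B being specific to SAGA and TADA3 shared with ATAC. Tada3 was 67.7, 69.8 and 68.3 CPM in Taf5l-KO and 62.9, 63.7 and 63.6 in Taf6l-KO, against 61.0, 55.5 and 58.3 in WT-Taf. All libraries of both knockouts were above all 3 of WT-Taf, and Taf5l-KO lay above Taf6l-KO. Tada3 rose by 0.24 ± 0.040 in Taf5l-KO (edgeR adjusted p = 0.000364), a call that held under all 16 alternatives, and by 0.12 ± 0.039 in Taf6l-KO (0.0246), a call that held under 6 of 16. The Taf6l-KO call was lost without Taf6l-KO replicate 2 (0.0650) or 3 (0.0678) and without WT-Taf replicate 2 (0.142) or 3 (0.0621). In cMyc-KO, Tada3 ranged from 68.1 to 75.2 CPM against 69.9 to 73.3 in WT-Myc, with a log2 fold change of 0.015 ± 0.057. Tada2b ranged from 17.7 to 18.5 CPM in Taf5l-KO and from 14.3 to 16.8 in WT-Taf, and its rise of 0.20 ± 0.069 (adjusted p = 0.0364) held under 2 of 16 alternatives. It was lost without any 1 library other than WT-Taf replicate 2 (adjusted p 0.0531 to 0.183). In Taf6l-KO (16.1 to 17.4 CPM) the difference of 0.094 ± 0.069 did not pass, and in cMyc-KO Tada2b was 17.2 to 18.5 CPM against 14.8 to 15.9 in WT-Myc, a log2 difference of 0.19 ± 0.072 with groups apart and an adjusted p of 0.0744.

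Usp22, the protease of the deubiquitinase module, had the smallest adjusted p among members in both Taf6l-KO and cMyc-KO, in opposite directions. It stood at 168, 177 and 171 CPM in WT-Taf, 187, 180 and 184 in Taf5l-KO and 211, 217 and 216 in Taf6l-KO, so that the 3 groups did not overlap. In the second experiment it was 185, 189 and 183 CPM in WT-Myc and 135, 135 and 131 in cMyc-KO, again without overlap. Usp22 rose by 0.32 ± 0.032 in Taf6l-KO (edgeR adjusted p = 2.59e-06), 1.25-fold, and fell by 0.48 ± 0.044 on the log2 scale in cMyc-KO (adjusted p = 0.000184), 1.39-fold lower. Both calls held under every alternative run for them (16 and 15). The rise of 0.094 ± 0.032 in Taf5l-KO (adjusted p = 0.0355) held under 4 of 16. Leaving out Taf5l-KO replicate 1 (0.0925) or 3 (0.0756) or WT-Taf replicate 1 (0.143) or 3 (0.0992) ended it, with these adjusted p-values. Taf6l-KO exceeded Taf5l-KO by 0.22 ± 0.031 in the direct test (adjusted p = 0.000261), which was not past the threshold with the authors' factors (0.12, adjusted p = 0.192) or on either FPKM scale (0.286 and 0.287). The effects of Taf6l-KO and Taf5l-KO differed from that of cMyc-KO by 0.75 ± 0.053 and 0.53 ± 0.053 (interaction terms, adjusted p = 2.82e-08 and 1.74e-06).

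**Figure D4:**
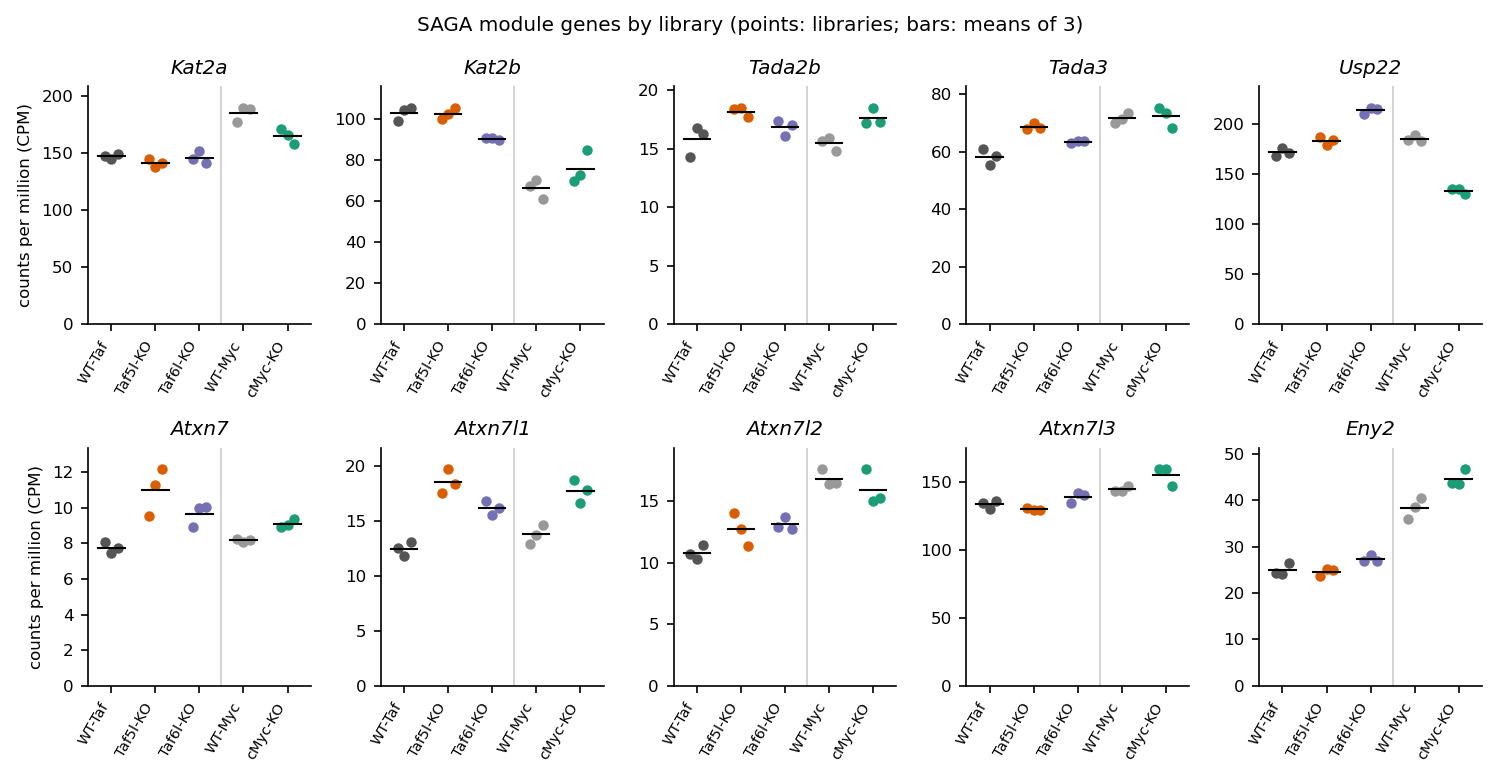
CPM of each module gene in every library (points) with the group mean (bars), for WT-Taf, Taf5l-KO and Taf6l-KO left and WT-Myc and cMyc-KO right of the grey line. Usp22 reaches 217 CPM in Taf6l-KO and 131 in cMyc-KO, and Atxn7l1 stands above its wild type in all 3 knockouts.

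Neighbouring genes on chromosome 11 moved with Usp22 in both knockouts. Kat2a, Usp22 and Atxn7l3 all lie on chromosome 11 (positions from GENCODE M21, GRCm38). In Taf6l-KO, 508 of its 1300 tested genes were called higher and 84 lower, with a median log2 fold change of 0.16 against 0.0044 on all other chromosomes. The 40 tested genes nearest to Usp22 (20 on each side) had a median of 0.23, and the nearest 20 one of 0.11, while 8 of the 40 lay above the value of Usp22 (0.32). Kat2a (-0.012) and Atxn7l3 (0.057) lay below the medians of their own 40 neighbours (0.12 and 0.21). In cMyc-KO the median over chromosome 11 was -0.057, but that of the 40 genes nearest to Usp22 was -0.31 that of the nearest 20 was -0.40 and that of the nearest 100 was -0.074, against -0.48 for Usp22. Of the 33 other genes starting within 1 Mb of Usp22, 21 were called lower and 4 higher (median -0.35), whereas the 47 genes 1 to 5 Mb before it had a median of 0.095 and the 28 genes 1 to 5 Mb after it a median of 0.037. The 257 genes over 10 Mb before it were also low (143 lower, 9 higher, median -0.41). These distances were chosen after the values were seen. In Taf5l-KO the genes within 1 Mb had a median of -0.051. Whether the changes of Usp22 belong to Usp22 or to its stretch of chromosome was not tested.

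**Figure D5:**
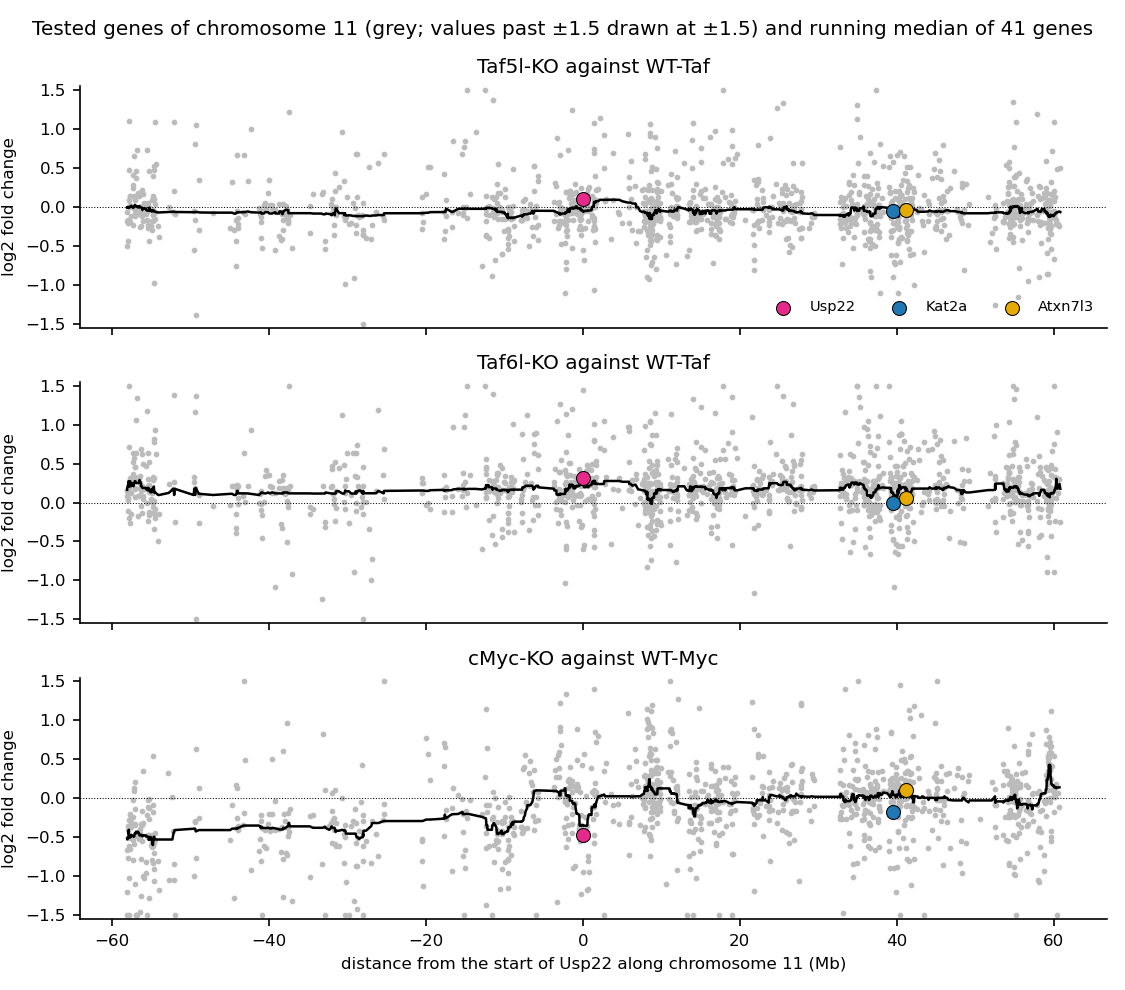
Log2 fold change of the tested genes of chromosome 11 (grey) against their distance from the start of Usp22 in Mb, with a running median of 41 genes (black), for Taf5l-KO, Taf6l-KO and cMyc-KO. In Taf6l-KO the running median lies above zero along nearly the whole chromosome (median of all its genes 0.16), and in cMyc-KO it dips around Usp22 and is low over the part of the chromosome more than 10 Mb before it (median -0.41).

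Atxn7l1, of the ataxin-7 family, had the largest rise among the 10 members in both Taf knockouts. Atxn7l1 was 17.5, 19.7 and 18.4 CPM in Taf5l-KO and 16.9, 15.6 and 16.2 in Taf6l-KO, against 12.6, 11.8 and 13.1 in WT-Taf. It was 18.7, 16.6 and 17.8 CPM in cMyc-KO against 12.9, 13.8 and 14.7 in WT-Myc. In each of the 3 knockouts all libraries were above all libraries of their wild type, and Atxn7l1 was the only member called higher in all 3. It rose by 0.58 ± 0.071 in Taf5l-KO (edgeR adjusted p = 2.54e-05), 1.49-fold, by 0.38 ± 0.071 in Taf6l-KO (0.00074), 1.30-fold, and by 0.36 ± 0.082 in cMyc-KO (0.0122), 1.28-fold. The first call held under all 16 alternatives. The second was lost with the authors' factors as offsets (adjusted p = 0.0681) and on the FPKM scale (0.105 and 0.106), and the third without WT-Myc replicate 1 (0.0513). Neither Taf effect on Atxn7l1 differed detectably from the cMyc-KO effect (differences of 0.17 ± 0.11 with a 95% interval of -0.033 to 0.38, and -0.018 ± 0.11 with an interval of -0.22 to 0.19).

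Atxn7, a gene whose repeat expansion causes a form of spinocerebellar ataxia, was the lowest of the family by mean CPM in every group. It stood at 9.56, 11.3 and 12.2 CPM in Taf5l-KO, 8.92, 9.98 and 10.01 in Taf6l-KO and 8.09, 7.46 and 7.72 in WT-Taf, with all knockout libraries above the wild type. It rose by 0.51 ± 0.10 in Taf5l-KO (edgeR adjusted p = 0.00135) and by 0.31 ± 0.10 in Taf6l-KO (0.0251). The Taf5l-KO call was lost only on the FPKM scale (0.0855 and 0.0945). The Taf6l-KO call was lost without Taf6l-KO replicate 2 (0.0713) or 3 (0.0808) and without WT-Taf replicate 2 (0.0881) or 3 (0.0584). It was also lost with DESeq2 (0.127), on both FPKM scales (0.296, with a log2 fold change of 0.17, and 0.265) and with the authors' factors (0.0771). In cMyc-KO, Atxn7 was 8.93, 9.02 and 9.34 CPM against 8.23, 8.04 and 8.21 in WT-Myc. These groups did not overlap, but the log2 difference of 0.16 ± 0.080 did not pass the test (adjusted p = 0.169). Chromosome 14, which carries Atxn7, had a median of -0.32 in cMyc-KO with 237 genes lower and 34 higher of 483, while the 40 neighbours of Atxn7 had a median of 0.027.

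Atxn7l2 ranged from 12.7 to 13.7 CPM in Taf6l-KO and from 10.3 to 11.4 in WT-Taf, a rise of 0.28 ± 0.086 (edgeR adjusted p = 0.0194). That call was lost without Taf6l-KO replicate 2 (0.0657) and without WT-Taf replicate 1 (0.0563) or 2 (0.0807), and also with DESeq2 (0.117), on both FPKM scales (0.357 and 0.353) and with the authors' factors (0.303). In Taf5l-KO it ranged from 11.3 to 14.1 CPM, overlapping WT-Taf, with a log2 difference of 0.23 ± 0.088 (adjusted p = 0.0545) that passed only without Taf5l-KO replicate 3 (0.31, adjusted p = 0.0174). In cMyc-KO (15.0 to 17.6 CPM) it differed from WT-Myc (16.4 to 17.6) by -0.079 ± 0.086. As a share of the summed ataxin-7 family RNA per length, Atxn7l1 was 42.9% ± 0.243 in WT-Taf, 47.5% ± 2.08 in Taf5l-KO and 44.4% ± 1.87 in Taf6l-KO, and 36.6% ± 2.16 in WT-Myc and 43.2% ± 0.764 in cMyc-KO. The Atxn7l2 share was 43.3% ± 0.519 in WT-Taf and 37.9% ± 3.81 in Taf5l-KO, and 52.1% ± 2.08 in WT-Myc and 45.3% ± 1.42 in cMyc-KO. In Taf5l-KO and cMyc-KO the Atxn7l1 and Atxn7l2 shares did not overlap those of the wild type (exact permutation p = 0.1 each, the smallest possible, adjusted 0.2). The size of these shares depends on the lengths used. On deposited FPKM, Atxn7l1 lay above Atxn7l2 in every group (82.2 against 23.6 in WT-Taf replicate 1, and 82.4 against 37.3 in WT-Myc replicate 1).

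Atxn7l3 and Eny2 complete the catalytic core of the deubiquitinase module around USP22. Atxn7l3 was 131, 130 and 130 CPM in Taf5l-KO, 135, 142 and 140 in Taf6l-KO and 135, 130 and 136 in WT-Taf, and 160, 160 and 147 in cMyc-KO against 144, 143 and 147 in WT-Myc. The groups overlapped in each comparison with wild type. The log2 differences of -0.040 ± 0.033, 0.057 ± 0.033 and 0.10 ± 0.051 did not pass the test (edgeR adjusted p = 0.398, 0.198 and 0.159). Atxn7l3 was called lower in Taf5l-KO with the authors' factors as offsets (-0.19, adjusted p = 0.0136) and on both FPKM scales (-0.19, 0.0343 and 0.0344), and higher in Taf6l-KO with library totals (0.13, 0.0210). Without cMyc-KO replicate 3 it rose in cMyc-KO (0.16, adjusted p = 0.0154). Its effect in Taf5l-KO differed from that in cMyc-KO by -0.19 ± 0.063 (interaction term, adjusted p = 0.0348). That call was lost with RLE scaling (0.0512) or no filter (0.0650), and without any 1 of the Taf5l-KO libraries, WT-Taf replicate 1 or 3, cMyc-KO replicate 1 or 2 or WT-Myc replicate 1 or 2 (0.0571 to 0.0832).

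Eny2 was 27.0, 28.2 and 27.0 CPM in Taf6l-KO against 24.3, 24.1 and 26.4 in WT-Taf, and 43.8, 43.5 and 46.7 in cMyc-KO against 35.9, 38.5 and 40.5 in WT-Myc. Neither pair of groups overlapped. Eny2 rose by 0.14 ± 0.052 in Taf6l-KO (edgeR adjusted p = 0.0484), a call that held under 2 of 16 alternatives and was lost without any 1 library other than WT-Taf replicate 3 (0.0753 to 0.171). It rose by 0.22 ± 0.064 in cMyc-KO (adjusted p = 0.0307) and lost that call without cMyc-KO replicate 1 (0.0541) or 2 (0.0543) or WT-Myc replicate 1 (0.100) or 2 (0.0921), and on both FPKM scales (0.0646 and 0.0615). In Taf5l-KO (23.7 to 25.2 CPM) it differed by -0.012 ± 0.054, and the effects in Taf5l-KO and cMyc-KO differed by -0.27 ± 0.081 (interaction term, adjusted p = 0.0164), a call lost without WT-Taf replicate 3 (0.0527).

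Between the Taf knockouts directly, Usp22 was higher and Kat2b lower in Taf6l-KO and the other 8 members were not called, where 18.7% of all genes were (8.55% higher, 10.1% lower). The groups did not overlap for 7 of 10 members and for 34.7% of all genes. Of the other 8, Tada3 (log2 difference of Taf6l-KO against Taf5l-KO of -0.11, adjusted p = 0.0534), Atxn7l3 (0.096, 0.0544), Eny2 (0.15, 0.0560) and Atxn7l1 (-0.19, 0.0579) were nearest to the threshold. In the interaction tests against cMyc-KO, 4 members were called for Taf5l-KO (Usp22 higher, and Kat2b, Atxn7l3 and Eny2 lower), where 32.1% of all genes were (15.7% higher, 16.4% lower). For Taf6l-KO 2 were called (Usp22 higher and Kat2b lower), where 34.8% of all genes were (17.1% higher, 17.7% lower).

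A further 14 SAGA genes were taken as a list, namely SGF29 (Ccdc101 in the files) of the acetyltransferase module and genes of the rest of the complex, the targeted Taf5l and Taf6l among them. In each Taf knockout 6 of the 14 fell, 1 rose and 7 were not called, where 15.9% (Taf5l-KO) and 18.2% (Taf6l-KO) of all genes were lower. The 6 include Taf5l and Taf6l in Taf5l-KO and Taf6l in Taf6l-KO. In cMyc-KO 4 fell and 2 rose, where 19.5% of all genes were lower and 15.2% higher. The median log2 fold change of the list was -0.15 in Taf5l-KO, -0.13 in Taf6l-KO and 0.022 in cMyc-KO. The median over all genes was 0.00054, 0.020 and -0.0018. Sf3b3 (-0.33 and -0.30), a splicing factor subunit shared with SAGA, and Taf9 (-0.42 and -0.38), a histone-fold subunit shared with TFIID, fell in Taf5l-KO and Taf6l-KO. In cMyc-KO, Taf9b, a paralog of Taf9, fell (-0.94), as did Tada1 (-0.40), while Taf9 rose (0.24).

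Of 9 subunits of ATAC, the other complex that holds KAT2A or KAT2B with TADA3, 1 rose and 2 fell in Taf5l-KO, 2 rose and 2 fell in Taf6l-KO, and 2 rose and none fell in cMyc-KO. That is 3, 4 and 2 of 9 called, where 33.2%, 37.2% and 34.8% of all genes were. Wdr5, a scaffold also present in histone methyltransferase complexes, fell in Taf5l-KO (-0.37) and Taf6l-KO (-0.50) and rose in cMyc-KO (0.44). Mbip fell in Taf5l-KO (-0.65), and Yeats2, a reader of acylated histone H3, rose in Taf5l-KO (0.14) and Taf6l-KO (0.19). Pole4 rose in cMyc-KO (0.29).

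Among the alternative partners of the deubiquitinase adaptors, Usp51 fell in Taf6l-KO (-0.71 ± 0.25 SE, edgeR adjusted p = 0.0382), an imprecise value. It was not called in Taf5l-KO (-0.38 ± 0.25, adjusted p = 0.258). Atxn7l3b, an intronless copy of Atxn7l3, fell in Taf5l-KO (-0.12) and Taf6l-KO (-0.23) and rose in cMyc-KO (0.45). Reads of Atxn7l3 and Atxn7l3b may be split between these similar genes, so both are uncertain. Usp27x was not called in any knockout. Of the 5 TREX-2 partners of ENY2, 2 rose and 1 fell in Taf5l-KO, 1 rose and 1 fell in Taf6l-KO, and 2 rose and 1 fell in cMyc-KO. With 33.2%, 37.2% and 34.8% of all genes called in these comparisons, 3, 2 and 3 of the 5 were. The TREX-2 scaffold Mcm3ap rose in Taf5l-KO (0.18) and Taf6l-KO (0.43) and fell in cMyc-KO (-0.22), and Cetn2, a centrin, rose in cMyc-KO (0.57).

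Of 10 genes for placing ubiquitin on H2B, the modification that USP22 removes, 2 rose and none fell in Taf5l-KO, 3 rose and 1 fell in Taf6l-KO, and 1 rose and 1 fell in cMyc-KO, so that 2, 4 and 2 of 10 were called beside 33.2%, 37.2% and 34.8% of all genes. Rnf40, a subunit of the H2B ubiquitin ligase, rose in Taf5l-KO (0.21), Taf6l-KO (0.16) and cMyc-KO (0.20), and Rtf1 of the PAF complex fell in Taf6l-KO (-0.21). Of 9 other histone deubiquitinases, 1 rose and 1 fell in Taf5l-KO, 2 rose and 1 fell in Taf6l-KO, and 1 rose and none fell in cMyc-KO, or 2, 3 and 1 of 9 called, beside the same shares of all genes. Usp49 rose in Taf5l-KO (0.46) and Taf6l-KO (0.27). Of 8 other histone acetyltransferases, 1 rose and 4 fell in Taf5l-KO, 2 fell in Taf6l-KO and 3 fell in cMyc-KO, with none rising in the last 2. Called were 5, 2 and 3 of the 8, against those shares. Kat6b (Myst4 in the files) fell in Taf5l-KO (-0.35) and Taf6l-KO (-0.38), and Crebbp (-0.59), Kat8 (Myst1, -0.37) and Kat7 (Myst2, -0.24) fell in cMyc-KO.

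The genes whose levels followed each member most closely were found over the 15 libraries after subtraction of each experiment's mean, among 10291 genes. These correlations describe libraries that share groups and scaling, so between-group differences dominate them. Usp22 was closest to Btg2 (Pearson r = 0.992) and Perp (0.982), Atxn7l1 to Atg13 (0.959) and Pramef12 (0.953), and Kat2b to Rnf115 (0.951) and Mtdh (0.947). Tada3 was closest to Xpnpep1 (0.939), Atxn7 to Atxn10 (0.938), Kat2a to Anapc16 (0.932), Tada2b to Magi1 (0.915) and Atxn7l3 to Nat9 (0.913), with Eny2 (Coasy, 0.877) and Atxn7l2 (Grhl1, 0.873) having the weakest. Among members themselves, Atxn7 and Atxn7l1 had the highest correlation (0.857), followed by Tada3 with Atxn7 (0.805) and with Atxn7l1 (0.790), and Kat2b and Usp22 had the most negative one (-0.756).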

How the data were processed

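RNA was measured in 15 libraries grouped by their titles. Per the labels' protocols, libraries were made from ribosomal RNA-depleted total RNA with a directional kit. Salmon 0.8.2, DESeq2 1.14.1 and the build mm9 appear in the submitters' processing notes, with no roles. The authors deposited estimated counts per gene (used as whole numbers), normalized counts (treated as a signal) and FPKM. Of 1275 single-transcript genes, 27.5% had a length behind the authors' FPKM within 20% of the annotated length, so levels use CPM per kilobase (GENCODE M21) in place of the planned FPKM. The TPM table's 15 columns could not be assigned and were not used.

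Counts were tested with edgeR 4.0.16 in R 4.3.3 (TMM, filterByExpr, glmQLFit, glmQLFTest; Benjamini-Hochberg threshold 0.05 over all genes), with 9 libraries in the first fit, 6 in the second and 15 for interactions. A standard error is the log2 fold change over the root of its F statistic. Scripts were tested on simulated data. DESeq2 1.42.0, RLE scaling, scaling by library totals, no filter, the replicate block, other sample sets, the omission of each library and limma 3.58.1 (log2 of FPKM plus 1 or 0.1, mean FPKM 0.5 or more) were alternatives, and the authors' factors as offsets were added after seeing the data. Genes named from other lists are called ones, at most 3 per knockout and list by smallest p; like genes have a mean of at least 100 counts, and examples are given. Members and lists were chosen with earlier results of these data known. Figures used Python 3.11.15.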

Additional observations from a re-analysis of the deposited data

How the results depend on the processing

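No called member value reversed. In 580 cases the call was unchanged, in 124 it was lost and in 22 it was gained. These cases are alternatives to 44 member values, with all members covered only against wild type. For the direct test between Taf knockouts they cover Kat2b, Usp22, Tada3, Atxn7l1, Atxn7l3 and Eny2. For the interaction tests they cover Kat2b, Usp22, Atxn7l3 and Eny2. Calls that held under every alternative run were Tada3 and Atxn7l1 in Taf5l-KO, Usp22 and Kat2b in Taf6l-KO, and Usp22 in cMyc-KO. Atxn7, the member with the fewest counts (114 to 256 per library), had the largest SE among members in both Taf comparisons with wild type (0.10).

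Members called higher in Taf5l-KO (5) numbered 3 with library totals, no filter, DESeq2, all 15 libraries, only the groups compared or the authors' factors, 2 on both FPKM scales, and 3 to 5 with a library left out; those called lower (0) numbered 1 on both FPKM scales and 2 with the authors' factors. In Taf6l-KO those higher (6) numbered 2 with DESeq2, 1 on both FPKM scales or with the authors' factors, and 2 to 5 with a library left out. In cMyc-KO those higher (2) numbered 5 with all 15 libraries and 0 to 4 with a library left out, and those lower (2) numbered 1 with RLE scaling, library totals, no filter, DESeq2, both FPKM scales or the authors' factors, and 1 to 2 with a library left out. Between the Taf knockouts, the member called higher (1) became 4 with library totals, 0 on both FPKM scales and 1 to 2 with a library left out, and the member called lower (1) became 2 with RLE scaling, 0 with library totals, all 15 libraries, FPKM or the authors' factors, and 1 to 2 with a library left out. For the Taf5l effect minus the Myc effect, those higher (1) numbered 2 with RLE scaling and 1 to 3 with a library left out, and those lower (3) numbered 1 with RLE scaling and 0 to 2 with a library left out. For the Taf6l effect minus the Myc effect, those higher (1) numbered 2 with library totals and 1 to 2 with a library left out, as did those lower (1) with a library left out. The share of all genes called under each alternative was not counted, so these counts cannot be set against it. The cause was not tested.

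Same-numbered replicates did not deviate together (correlations from -0.54 to 0.15). With the replicate number as a block, members called in cMyc-KO numbered 0 higher and 1 lower, with Atxn7l1 (adjusted p = 0.0556), Eny2 (0.0815) and Kat2a (0.150) losing their calls, and those called lower for the Taf5l effect minus the Myc effect 1; Tada2b in Taf5l-KO (adjusted p = 0.0536) and Eny2 in Taf6l-KO (0.0593) also lost their calls.

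The order of levels moved 4, 4, 4, 5 and 2 members with CPM in place of CPM per kilobase, and 8, 8, 8, 5 and 7 with FPKM, in Taf5l-KO, Taf6l-KO, WT-Taf, cMyc-KO and WT-Myc. Leaving out a library moved 0 to 2 members in Taf6l-KO. With FPKM, the Kat2a share differed from wild type by 3.37 points in Taf5l-KO, 5.44 in Taf6l-KO and -7.46 in cMyc-KO. With 10 neighbours on each side the median around Usp22 was 0.11 in Taf6l-KO and -0.40 in cMyc-KO, and around Atxn7l3 0.11 in Taf6l-KO. With 50 it was -0.074 around Usp22 in cMyc-KO, and 0.18 around Kat2a and 0.16 around Atxn7l3 in Taf6l-KO.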
